A study of Mus musculus with 13 samples.

Results

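Whole male gonads of mouse embryos at 14.5 days post coitum (dpc) were compared with mouse embryonic fibroblasts (MEF) by 1-colour expression array, with 2 arrays in each group. The gonads were wild type, carried no transgene and went to RNA extraction without culture. The MEF, primary connective tissue cells grown from embryos, were wild type, carried an empty vector and had been kept for 3 passages in 10% serum. Tissue, culture, serum and vector changed together between the groups, so their shares in a difference cannot be told apart. Whether the arrays of a group came from separate animals or cultures is not given, nor are the strain and the age and sex of the embryos behind the MEF. Features named for a gene were kept if their log2 signal was above the array median, 7.488 on every array, on at least 2 of these 4 arrays. This held for 22866 of 31465 named features, which covered 15118 of 20738 genes. A gene was represented by its brightest feature over all 13 arrays of the study, and 15092 genes were tested with limma in 1 fit of the 13 arrays and 7 groups. Arrays from 2 further groups are given beside the main values as a reference. These were tail tip fibroblasts (TTF; wild type, tdTomato transgene, 3 passages in 10% serum) and immature Sertoli cells (19 dpc testis, wild type, no transgene, 3 days in 10% serum), 2 arrays each. They share the MEF or gonad arrays with the main comparison when a difference is formed, so their differences are set side by side only.

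At this age the testis has just taken shape. Sertoli cells enclose the germ cells in cords, produce anti-Müllerian hormone and send Desert hedgehog to the cells between the cords, where fetal Leydig cells make steroid hormones and endothelial cells build the vasculature that is typical of the testis. The germ cells are at the point where male ones stop dividing, silence the programme of pluripotency and stay out of meiosis, helped by Cyp26b1, which breaks down retinoic acid. Embryonic fibroblasts in culture spread on stiff plastic in serum, which drives actin fibres, the serum response factor and the YAP and TAZ co-activators, and they retain Hox and limb or body wall transcription factors that record where in the embryo they came from.

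The groups differed across most of the transcriptome. The gonad and MEF means lay 1.55 apart (root mean square of the log2 differences over the genes tested), while the 2 gonad arrays lay 0.152 apart and the 2 MEF arrays 0.230 apart. At an adjusted p under 0.05 (limma, Benjamini-Hochberg over 15092 genes), 81.9% of the genes were called, 43.0% higher in the gonad and 38.9% lower, and on 91.7% the arrays of the groups did not overlap. A call or a gap between the arrays was therefore the ordinary result here, and size is the more informative measure. Differences of 1 or more on the log2 scale, which is 2-fold, were called for 2786 genes higher in the gonad (18.5%) and 2225 lower (14.7%). Of the higher genes, 1048 had a MEF mean under the array median, and 350 of the lower genes had such a gonad mean. With the mean of 1 group under the median, a gene could pass the intensity rule only with an array of the other group above it. The rule thus largely sets the direction of such a difference, and its exact size hangs on an unknown background. The median difference over all genes tested was 0.05. In bulk RNA of this kind, fewer cells of a type and less RNA per cell cannot be told apart.

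**Figure D1:**
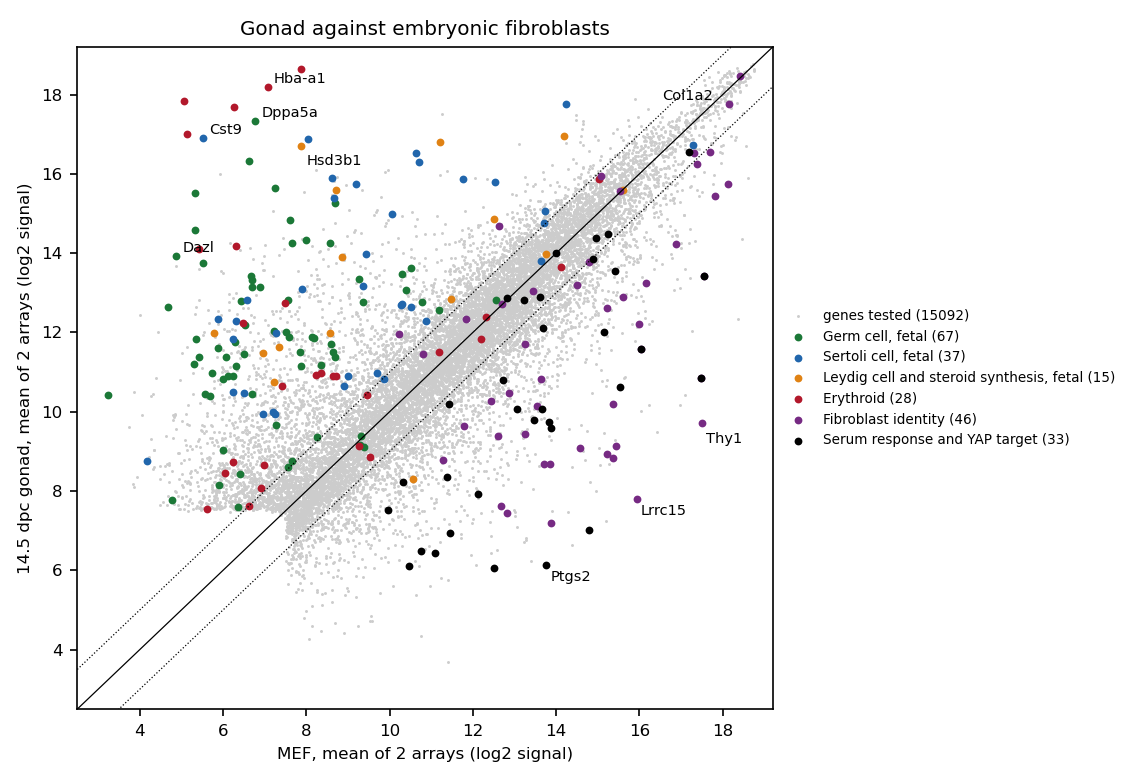
Mean log2 signal of each gene tested on the 2 gonad arrays (vertical) against the 2 MEF arrays (horizontal), with 6 gene lists in colour; the solid line marks equality and the dotted lines a difference of 1. Most germ cell, Sertoli, Leydig and globin genes lie far above the line, fibroblast and serum response genes below it, and the empty corner at the lower left is the intensity rule.

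The largest rise among bright, consistently placed genes belonged to adult beta globin Hbb-bt, with 17.79 and 17.89 on the gonad arrays and 5.07 and 5.07 on the MEF arrays (difference 12.77 ± 0.36 (SE), adjusted p = 1.9e-09). Beside 5 globins, the first 15 rises were made up of the Sertoli products Cst9 (11.39), Defb19 (10.05) and Ptgds (8.84), the steroid enzyme Hsd3b1 (8.84), the germ cell genes Dppa5a (10.57), Dppa3 (10.17), Tex19.1 (9.70), Mael (9.27) and Dazl (9.05), and Rpl10l (8.82), a ribosomal protein gene copy known from the male germline. In the other direction the largest fall was that of Lrrc15, a membrane protein of activated fibroblasts, with 7.76 and 7.84 on the gonad arrays and 15.83 and 16.04 on the MEF arrays (difference -8.14 ± 0.21 (SE), adjusted p = 1.1e-09). The other falls among the first 15 were those of the annexin Anxa8 (-7.97), the surface glycoprotein Thy1 (-7.81), the YAP target Ankrd1 (-7.77), the chemokines Ccl7 (-7.74) and Cxcl14 (-6.96), the epidermal gene Sprr2k (-7.69), the prostaglandin synthase Ptgs2 (-7.64), the transcription factors Zic1 (-7.16) and Irx1 (-6.83), the matrix gene Ltbp2 (-6.94), the actin Actg2 (-6.80), the BMP antagonist Grem1 (-6.69), the calponin Cnn1 (-6.67) and thrombospondin Thbs1 (-6.63). The features of Zic1 disagreed in size, from -7.16 to -1.88.

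Germ cell genes were far higher in the gonad. Of 72 listed germ cell genes on the array, 67 were tested, 64 of them higher and 1 lower in the gonad, with a median difference of 4.77. The MEF mean was under the array median for 37 of the 67, so for these the count follows from the intensity rule. Dppa3, a gene of early germ cells, measured 15.49 and 15.53 on the gonad arrays and 5.13 and 5.54 on the MEF arrays (difference 10.17 ± 0.74 (SE), adjusted p = 1.2e-06). Dazl, an RNA-binding protein that licenses gamete development, measured 14.01 and 13.86 on the gonad arrays and 4.34 and 5.42 on the MEF arrays (difference 9.05 ± 0.30 (SE), adjusted p = 5e-09). Every MEF value of both genes was under the array median and every gonad value far above it. Ddx4, an RNA helicase of the germ granule, measured 14.21 and 14.32 on the gonad arrays and 7.53 and 7.80 on the MEF arrays (difference 6.601 ± 0.40 (SE), adjusted p = 3.4e-07). Nanos2, the translational repressor that marks male fate in fetal germ cells, measured 13.68 and 13.80 on the gonad arrays and 5.37 and 5.64 on the MEF arrays (difference 8.23 ± 0.13 (SE), adjusted p = 4.6e-11). For these genes, too, the groups were far apart. Sall4 and Nanog did not pass the test through their brightest feature, at 0.08 and -0.12. The other features of these genes disagreed, and Sall4 ranged from 0.08 to 7.46 over its 3 features and Nanog from -0.12 to 4.22 over 2. Dnmt3l, the cofactor of de novo methylation, was slightly lower in the gonad (-0.28, adjusted p = 0.00677).

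**Figure D2:**
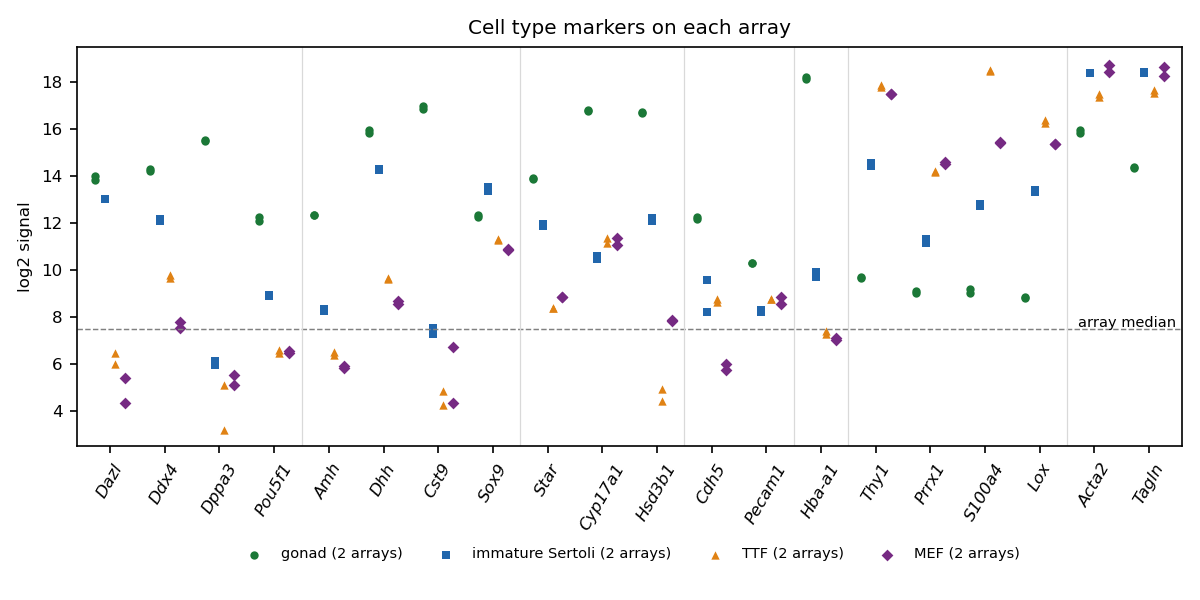
Log2 signal of 20 marker genes on each of the 2 arrays of gonad, immature Sertoli culture, TTF and MEF, in the order germ cell, Sertoli, Leydig, endothelial, red cell, fibroblast and smooth muscle; the dashed line is the array median. Replicate arrays nearly coincide, except for dim values such as Cst9 in MEF (4.33 and 6.71).

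The genes that keep transposons silent in the germline moved with them. Tested members of the piRNA and transposon silencing list numbered 23 of 25 on the array, and 22 were higher in the gonad, with a median difference of 3.501. 15 of them had a MEF mean under the array median, and 17 of them are also counted among the germ cell genes. Mael, a piRNA pathway protein, measured 14.70 and 14.48 on the gonad arrays and 4.66 and 5.98 on the MEF arrays (difference 9.27 ± 0.37 (SE)). Piwil2, the Piwi protein that makes the primary piRNAs of the fetal testis, measured 11.01 and 10.97 on the gonad arrays and 5.67 and 5.82 on the MEF arrays (difference 5.24 ± 0.13 (SE)). Smaller differences were found for Piwil4 (2.03), the Piwi protein that enters the nucleus, and for the tudor proteins Tdrd1 (2.24) and Tdrd9 (3.04), all of them dim in MEF.

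Genes of the pluripotent state were also high in the gonad. Of 27 tested, 21 were higher and 4 lower, with a median of 4.59. The MEF mean was under the array median for 11 of the 27, so for these the direction follows from the intensity rule. Of the 27, 16 are also counted among the germ cell genes. Pou5f1, the factor that germ cells share with embryonic stem cells, measured 12.10 and 12.26 on the gonad arrays and 6.57 and 6.49 on the MEF arrays (difference 5.65 ± 0.08 (SE), adjusted p = 4.4e-11). Sox2 (4.66), Zfp42 (5.31), Lin28a (4.08), Esrrb (5.23) and Utf1 (6.58) were higher as well. The members lower in the gonad were factors that fibroblasts are known to express, Klf4 (-1.59), Klf2 (-1.19), Klf5 (-0.23) and Myc. Myc and its relative Mycn went in opposite directions: Myc measured 10.01 and 10.15 on the gonad arrays and 12.98 and 13.14 on the MEF arrays (difference -2.98 ± 0.10 (SE)), and Mycn 13.89 and 14.04 on the gonad arrays and 9.26 and 9.50 on the MEF arrays (difference 4.59 ± 0.08 (SE)). The Nodal pathway, which is active in male germ cells of this age, showed Nodal at 3.68, Lefty1 at 3.17, Lefty2 at 6.33 and the co-receptor Tdgf1 at 1.11, all 4 higher in the gonad.

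Meiotic genes were higher in the gonad too, although male germ cells do not enter meiosis before birth. Among 28 tested, 24 were higher and 3 lower, with a median of 2.55, and 13 were under the array median in MEF. Of the 28, 5 are also counted among the germ cell genes. Sycp1, a filament of the synaptonemal complex, measured 10.38 and 10.48 on the gonad arrays and 3.43 and 3.06 on the MEF arrays (difference 7.19 ± 0.39 (SE)). The meiotic cohesin subunits Smc1b (6.47), Stag3 (4.37) and Rec8 (1.71) were higher. The recombination enzymes Spo11 (2.56) and Dmc1 (2.12) were higher as well. Prdm9, which places the breaks of meiotic recombination, was lower (-0.41), as were Ythdc2 (-0.39) and Mlh3 (-0.36). Stra8, the retinoic acid responsive gatekeeper of meiosis, measured 10.52 and 10.39 on the gonad arrays and 6.02 and 5.11 on the MEF arrays (difference 4.89 ± 0.24 (SE), adjusted p = 6.3e-08).

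The immature Sertoli cultures carried germ cell signal of their own. In the comparison of gonad with these cells, which called 74.7% of all genes tested, 41.4% higher and 33.4% lower in the gonad, 41 germ cell genes were higher and 9 lower. Dazl stood at 13.02 and 13.03 in the cultures (gonad minus immature Sertoli 0.91 ± 0.30 (SE), adjusted p = 0.0207), and Mael at 13.77 and 13.52 (0.95 ± 0.37 (SE), adjusted p = 0.0406). The early genes lay much further apart: Dppa3 was 6.15 and 5.98 in the cultures (9.44 ± 0.74 (SE), adjusted p = 2.8e-06), Nanos2 7.38 and 7.34 (6.38 ± 0.13 (SE), adjusted p = 3.2e-10) and Lefty2 8.27 and 8.15 (6.11 ± 0.06 (SE), adjusted p = 1.6e-11). Stra8 lay the other way at 16.71 and 16.49 (-6.14 ± 0.24 (SE), adjusted p = 2.1e-08). Dazl, Mael and Stra8 were thus bright in the cultures, whereas Dppa3 and Nanos2 were under the array median there.

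Promoter sequences are shown for 5 germ cell and meiotic genes, since these members were high together and their start regions share a short element. Promoters were taken from RefSeq (GRCm38.p6), which held 1 for 51 of the 67 germ cell genes tested, and the 250 bases before the gene start were searched for CACGTG, an E box that reads alike on both strands. It was found in 19 of the 51 genes (37.3%) and in 7 of 24 meiotic genes (29.2%; members shared). Among tested genes with a promoter it was found in 9.49% of 11960, among all genes of the table in 6.86% of 27025, and among the 272 genes higher in the gonad by 4 or more in 9.56%. The motif and the genes printed were chosen with the values known, the match is only a match of letters, and no test was made. Each stretch has 70 bases, 5′ to 3′ on the gene's strand, with the E box in capitals.
Ddx4 (chr13:112652311-112652380, minus strand): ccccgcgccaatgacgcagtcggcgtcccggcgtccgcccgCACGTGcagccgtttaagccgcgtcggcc
Mael (chr1:166238925-166238994, minus strand): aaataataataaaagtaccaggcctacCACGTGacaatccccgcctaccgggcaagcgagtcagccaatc
Stk31 (chr6:49395452-49395521, plus strand): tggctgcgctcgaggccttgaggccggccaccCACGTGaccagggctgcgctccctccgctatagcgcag
Sycp1 (chr3:102936157-102936226, minus strand): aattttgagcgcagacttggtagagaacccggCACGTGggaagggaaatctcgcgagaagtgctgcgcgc
Sycp3 (chr10:88459512-88459581, plus strand): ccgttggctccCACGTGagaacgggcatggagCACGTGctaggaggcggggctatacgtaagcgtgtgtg
The E box begins 29 bases before the gene start in Ddx4, 223 in Mael, 55 in Stk31 and 94 in Sycp1. Sycp3 has 2 of them, the nearer at 43 bases. Stk31, a kinase-like tudor protein of germ cells, measured 12.79 and 12.80 on the gonad arrays and 6.12 and 6.76 on the MEF arrays (difference 6.35 ± 0.26 (SE)), and Sycp3, an axis protein of meiotic chromosomes, 11.97 and 11.80 on the gonad arrays and 7.62 and 7.57 on the MEF arrays (difference 4.29 ± 0.10 (SE)). The E2F element TTCCCGC was found on either strand in 7 of the 51 germ cell promoters (13.7%), among them Ddx4, and in 8 of the 24 meiotic ones (33.3%), against 7.44% of tested genes. The NR5A site AAGGTCA was searched likewise and found in 3.65% of tested genes. It was in 1 of the 51 germ cell promoters (1.96%) and 1 of the 24 meiotic ones (4.17%). Among Sertoli and Leydig genes it was found in 0 of 23 and 0 of 7.

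Sertoli cell genes were the next large block. 37 of 38 listed genes were tested, of which 35 were higher and 1 lower in the gonad, with a median difference of 3.98; 12 were under the array median in MEF. Amh, the hormone that regresses the Müllerian duct, measured 12.33 and 12.36 on the gonad arrays and 5.92 and 5.82 on the MEF arrays (difference 6.47 ± 0.19 (SE), adjusted p = 2.1e-09). Dhh, the hedgehog ligand of Sertoli cells, measured 15.86 and 15.95 on the gonad arrays and 8.56 and 8.68 on the MEF arrays (difference 7.28 ± 0.06 (SE), adjusted p = 7.6e-12). Cst9, a cystatin of the fetal testis, measured 16.98 and 16.85 on the gonad arrays and 4.33 and 6.71 on the MEF arrays (difference 11.39 ± 0.59 (SE), adjusted p = 1.1e-07). In all 3 the gonad arrays nearly coincided, and the MEF arrays were apart only for Cst9, where both were dim. Aard, a small Sertoli protein, differed by 6.74, and Ptgds, the prostaglandin D synthase that spreads Sox9 activity, by 8.84.

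The transcription factors of the list ranged widely, from Sox9 (1.42), Dmrt1 (1.91) and Sox8 (2.97) to Wt1 (4.10), Nr0b1 (4.26), Gata4 (4.54) and Nr5a1 (6.54), all higher in the gonad. Sox9, the factor that fixes Sertoli fate, measured 12.34 and 12.25 on the gonad arrays and 10.87 and 10.89 on the MEF arrays (difference 1.42 ± 0.07 (SE), adjusted p = 7.3e-08), and its 10 features gave 1.34 to 1.58. Both groups were above the 75th percentile of the array, 10.473, so MEF were not without Sox9 signal. The follicle stimulating hormone receptor Fshr measured 8.78 and 8.72 on the gonad arrays and 5.09 and 3.23 on the MEF arrays (difference 4.59 ± 0.51 (SE)), with dim and unequal MEF values. Krt8, a keratin of fetal Sertoli cells, was higher (2.41), whereas its partner Krt18 measured 13.78 and 13.81 on the gonad arrays and 13.65 and 13.64 on the MEF arrays and did not pass the test (adjusted p = 0.0957). Ctsl, a lysosomal protease, was the 1 member lower in the gonad (-0.56).

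The comparison with immature Sertoli cultures called 41.4% of all genes tested higher in the gonad and 33.4% lower. Of the Sertoli genes, 18 were higher in the gonad and 13 lower. Those higher included Cst9 (7.55 and 7.29 in the cultures; 9.50 ± 0.59 (SE)), Amh (8.26 and 8.34; 4.04 ± 0.19 (SE)) and Rhox5 (10.15 and 10.26; 6.31 ± 0.09 (SE)). Lower were Sox9 (13.56 and 13.38; -1.17 ± 0.07 (SE)) and Inha (15.76 and 15.69; -0.74 ± 0.06 (SE)), and for Gata4 (14.04 and 14.28; -0.19 ± 0.14 (SE), adjusted p = 0.248) and Fshr (8.70 and 8.64; 0.08 ± 0.51 (SE), adjusted p = 0.894) the difference did not pass the test. Age, culture and cell mixture all differ between these groups and cannot be told apart.

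Genes of steroid synthesis, the work of fetal Leydig cells, were mostly higher in the gonad. Of 15 tested, 13 were higher in the gonad and 1 lower, with a median of 3.53. The MEF mean was under the array median for 4 of the 15. The listed Leydig genes Insl3 and Lhcgr had no named feature on the array. Star, which moves cholesterol into mitochondria, measured 13.91 and 13.88 on the gonad arrays and 8.87 and 8.86 on the MEF arrays (difference 5.03 ± 0.06 (SE), adjusted p = 1.4e-11). Cyp11a1, which makes pregnenolone, measured 15.56 and 15.64 on the gonad arrays and 8.73 and 8.69 on the MEF arrays (difference 6.89 ± 0.40 (SE), adjusted p = 2.5e-07). Cyp17a1, the enzyme of the androgen branch, measured 16.78 and 16.82 on the gonad arrays and 11.37 and 11.06 on the MEF arrays (difference 5.58 ± 0.15 (SE), adjusted p = 1.7e-09). All MEF values of the 3 genes were above the array median and far below both gonad arrays. Hsd3b1 measured 16.71 and 16.72 on the gonad arrays and 7.90 and 7.84 on the MEF arrays; it is nearly identical to Hsd3b6 (6.20), and their features may share signal.

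Genes named for the adrenal cortex were high in the gonad as well. The ACTH receptor Mc2r measured 10.74 and 10.78 on the gonad arrays and 7.31 and 7.15 on the MEF arrays (difference 3.53 ± 0.40 (SE)), Cyp11b1, the last enzyme of corticosterone synthesis, 11.60 and 11.67 on the gonad arrays and 7.26 and 7.41 on the MEF arrays (difference 4.29 ± 0.14 (SE)), and Cyp21a1, another enzyme of that branch, 11.97 and 12.00 on the gonad arrays and 8.51 and 8.60 on the MEF arrays (difference 3.43 ± 0.05 (SE)). Cells with such genes are known from the fetal mouse testis, but which cells gave the signal here was not tested. In Mc2r and Cyp11b1 the MEF arrays were under the array median, and the 2 features of Cyp21a1 gave 0.28 to 3.43. The electron donor Por (0.24) changed little, Cyb5a gave -0.02 and did not pass the test, and Itih2, an inter-alpha-trypsin inhibitor chain of the same list, was lower in the gonad (-2.26). Cholesterol synthesis genes, which supply the pathway, were higher for 16 of 20 and lower for 3, but their median was only 0.40. The largest were Dhcr7 (1.67) and Tm7sf2 (1.67), both late steps, while Sc5d was lower (-1.40).

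Factors that build the gonad were mostly higher, 15 of 21 against 2 lower. Nr5a1, the nuclear receptor at the head of gonad and steroid genes, measured 15.71 and 15.76 on the gonad arrays and 9.26 and 9.12 on the MEF arrays (difference 6.54 ± 0.08 (SE), adjusted p = 2.4e-11). Wt1, the zinc finger factor of the genital ridge, measured 15.86 and 15.88 on the gonad arrays and 11.72 and 11.83 on the MEF arrays (difference 4.10 ± 0.07 (SE), adjusted p = 5.7e-11), and Gata4 13.91 and 14.03 on the gonad arrays and 9.50 and 9.36 on the MEF arrays (difference 4.54 ± 0.14 (SE)). All 3 were above the array median in MEF. In TTF, Wt1 stood at 6.77 and 6.85 (TTF minus MEF -4.96 ± 0.07 (SE)) and Gata4 at 7.16 and 7.22 (-2.24 ± 0.14 (SE)), so MEF and TTF were unlike each other here. Tcf21, a factor of gonadal mesenchyme, measured 13.73 and 13.90 on the gonad arrays and 8.01 and 8.09 on the MEF arrays (difference 5.76 ± 0.08 (SE)). Lhx9 (2.80) and Nr2f2 (2.63), a marker of interstitial cells, were higher. Emx2, needed for the early ridge, measured 10.00 and 9.96 on the gonad arrays and 10.00 and 9.97 on the MEF arrays and did not pass the test (-0.01), and neither did Cited2 (0.11) or Six4 (-0.11).

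Hedgehog signalling, which runs from Sertoli to interstitial cells, had both higher and lower members. Dhh, described above, had the largest difference of the list. Gli1, the transcription factor that is itself a readout of the pathway, measured 14.53 and 14.56 on the gonad arrays and 9.06 and 9.24 on the MEF arrays (difference 5.39 ± 0.07 (SE), adjusted p = 2.6e-11). Hhip, a decoy receptor induced by the pathway, measured 12.37 and 12.43 on the gonad arrays and 8.36 and 8.38 on the MEF arrays (difference 4.03 ± 0.07 (SE)), and the receptor Ptch1, another target, 10.01 and 9.98 on the gonad arrays and 7.67 and 7.56 on the MEF arrays (difference 2.38 ± 0.07 (SE)). For these 3 targets the gonad arrays were above the MEF arrays. The signal transducer Smo measured 15.36 and 15.35 on the gonad arrays and 15.20 and 15.24 on the MEF arrays and did not pass the test (0.13, adjusted p = 0.0817). Gli2 (0.21) was slightly higher, and the forkhead genes Foxf1 (-1.14) and Foxf2 (-2.25), also known targets, Gli3 (-0.63), Sufu (-0.65), Gas1 (-1.22) and Disp1 (-1.59) were lower. Over the whole list 9 of 21 genes were higher and 10 lower, beside 43.0% and 38.9% of all genes tested. The list median was 0.01, close to that of all genes. In immature Sertoli cultures, Dhh was 14.27 and 14.32 and Gli1 8.52 and 8.59, so the ligand was high there while Gli1 lay 5.99 under the gonad.

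Other genes of interstitial cells were mixed, 13 higher and 10 lower of 26, beside 43.0% and 38.9% of all genes tested. Pdgfra, the platelet derived growth factor receptor of Leydig precursors, measured 14.77 and 14.59 on the gonad arrays and 12.69 and 12.55 on the MEF arrays (difference 2.06 ± 0.10 (SE)), while its sister receptor Pdgfrb was lower (-1.31). Dlk1, a Notch-like ligand, was higher (1.68). Vcam1 (-2.84), Acta2 (-2.70) and Inhba (-1.56) were lower in the gonad.

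Retinoic acid genes were split. Of the enzymes that make it from retinol, Aldh1a1 measured 17.48 and 17.53 on the gonad arrays and 11.23 and 11.31 on the MEF arrays (difference 6.24 ± 0.06 (SE)), Aldh1a2 (2.16), Aldh1a3 (0.90) and the alcohol dehydrogenase Adh1 (5.62) were higher, and the alcohol dehydrogenase Adh7 (-2.31) and the retinol dehydrogenases Rdh10 (-0.86) and Rdh11 (-1.05) were lower. Cyp26b1, which breaks it down, measured 15.83 and 15.78 on the gonad arrays and 12.57 and 12.50 on the MEF arrays (difference 3.26 ± 0.08 (SE), adjusted p = 5.6e-10). The binding protein Crabp1 measured 9.26 and 9.29 on the gonad arrays and 15.49 and 15.35 on the MEF arrays (difference -6.14 ± 0.16 (SE), adjusted p = 9.7e-10), and Crabp2 differed by -3.13. The receptors Rarg (-2.85) and Rarb (-1.47), of which the latter is a known target, were lower and Rara (0.34) slightly higher. Of the list, 9 of 19 were higher and 9 lower, beside 43.0% and 38.9% of all genes tested. Against the immature Sertoli cultures, Cyp26b1 was higher in the gonad by 5.07 ± 0.08 (SE) and Aldh1a1 lower by a small margin (-0.34 ± 0.06 (SE)).

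In the TGF beta family, 18 of 44 genes were higher and 23 lower, beside 43.0% and 38.9% of all genes tested. The testis hormone axis was high, with Amh as above, its receptor Amhr2 at 16.01 and 16.08 on the gonad arrays and 9.88 and 9.92 on the MEF arrays (difference 6.15 ± 0.07 (SE)) and the inhibin alpha chain Inha at 14.97 and 15.005 on the gonad arrays and 10.10 and 10.01 on the MEF arrays (difference 4.93 ± 0.06 (SE)). Of the activin chains, Inhbb was higher, 14.76 and 14.79 on the gonad arrays and 13.67 and 13.73 on the MEF arrays (difference 1.07 ± 0.08 (SE)), and Inhba lower, 13.81 and 13.75 on the gonad arrays and 15.39 and 15.30 on the MEF arrays (difference -1.56 ± 0.06 (SE)). The activin antagonist Fst was lower by far, 9.35 and 9.32 on the gonad arrays and 13.27 and 13.14 on the MEF arrays (difference -3.87 ± 0.11 (SE)), as were Fstl3 (-3.32) and the BMP antagonist Grem1. Ligands of the fibroblast side, Tgfb3 (-3.85), Tgfb1 (-1.26) and Bmp4 (-1.28), and the receptor Tgfbr2 (-2.02) were lower, whereas Bmp7 (5.08) and Bmp2 (1.57) were higher. The 2 features of Bmp4 ranged from -1.28 to 0.50.

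**Figure D3:**
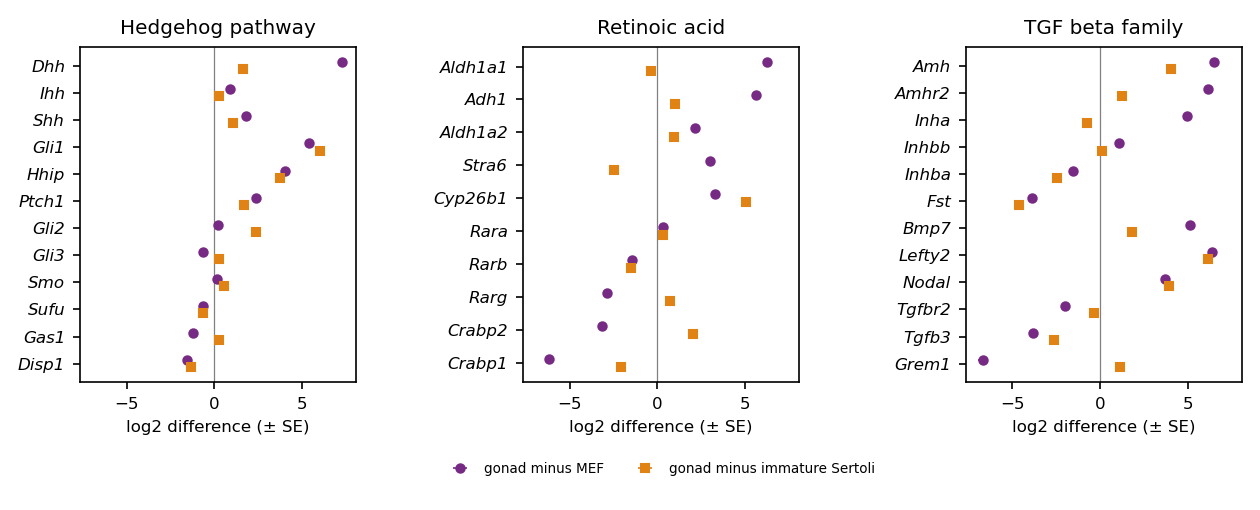
Log2 differences with standard errors (most smaller than the symbol) for selected genes of 3 pathways, gonad minus MEF as circles and gonad minus immature Sertoli as squares; both use the same 2 gonad arrays. Dhh, Gli1, Hhip and Ptch1 lie to the right of 0 in both, Fst, Inhba and Tgfb3 to the left in both, and Crabp2, Rarg and Grem1 on opposite sides.

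The whole gonad also holds vessels and blood, and their genes were mostly higher. Of 34 endothelial genes tested, 28 were higher and 4 lower, with a median of 2.84. For 10 of the 34, Cdh5 among them, the MEF mean was under the array median, so their direction follows from the intensity rule. Cdh5, the cadherin of endothelial junctions, measured 12.17 and 12.28 on the gonad arrays and 5.76 and 6.01 on the MEF arrays (difference 6.34 ± 0.40 (SE), adjusted p = 4e-07). Icam2 (6.81), the claudin Cldn5 (6.16), Tie1 (5.60) and von Willebrand factor Vwf (4.74) were higher. Pecam1 measured 10.31 and 10.30 on the gonad arrays and 8.88 and 8.54 on the MEF arrays (difference 1.596 ± 0.09 (SE)). The receptor Tek, which binds angiopoietins, was higher (2.18). The 4 lower members were Ecscr (-1.38), the VEGF receptor Flt1 (-1.14), the ephrin Efnb2 (-0.91) and, through its brightest feature, the VEGF receptor Kdr (-0.30), while its 11 features ranged from -0.30 to 3.65. Averaged over the list, the signal was 11.41 and 11.41 on the gonad arrays, 8.79 and 8.74 on MEF, 9.30 and 9.30 on TTF and 9.22 and 9.16 on immature Sertoli arrays.

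Globins gave the largest differences of all. Hba-a1, adult alpha globin, measured 18.14 and 18.24 on the gonad arrays and 7.12 and 7.03 on the MEF arrays (difference 11.11 ± 0.13 (SE), adjusted p = 1.4e-11), and Hbb-y, an embryonic beta-like globin, 17.68 and 17.70 on the gonad arrays and 6.22 and 6.29 on the MEF arrays (difference 11.43 ± 0.20 (SE)). Hba-x, the embryonic zeta chain, differed by 8.69 and Hbb-bh1 by 5.26. The alpha pair Hba-a1 and Hba-a2 and the beta genes Hbb-bt, Hbb-b2 and Hbb-bs are near copies whose features may share signal. Alas2, the haem synthesis enzyme of red cells, measured 12.21 and 12.24 on the gonad arrays and 6.53 and 6.41 on the MEF arrays (difference 5.75 ± 0.08 (SE)), and Gata1, their master regulator, 8.80 and 8.67 on the gonad arrays and 5.81 and 6.69 on the MEF arrays (difference 2.48 ± 0.62 (SE)). In total 23 of 28 erythroid genes were higher and 3 lower, with a median of 2.33. The MEF mean was under the array median for 15 of the 28, so for these the direction follows from the intensity rule. Not every listed gene acted as a marker: Hemgn, a blood nuclear protein, was bright in both groups at 15.88 and 15.88 on the gonad arrays and 14.89 and 15.18 on the MEF arrays.

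Of 24 macrophage genes tested, 14 were higher and 3 lower, beside 43.0% and 38.9% of all genes tested. By 1 or more, 6 were higher and 3 lower, beside 18.5% and 14.7% of all genes tested. The list median was 0.67, and 8 more genes were too dim to test, among them Cd68, Spi1 and Cd163. Cx3cr1, the fractalkine receptor, measured 10.60 and 10.71 on the gonad arrays and 8.10 and 8.19 on the MEF arrays (difference 2.51 ± 0.16 (SE)), and Csf1r, the receptor on which macrophages depend, 12.61 and 12.52 on the gonad arrays and 10.81 and 10.80 on the MEF arrays (difference 1.76 ± 0.09 (SE); its 3 features gave -0.25 to 1.76). The 3 lower members were Gpnmb (-4.29), Cd14 (-1.82), a receptor for bacterial lipopolysaccharide, and the integrin Itgam (-1.07). Adgre1, a macrophage surface receptor, measured 8.06 and 8.11 on the gonad arrays and 7.82 and 8.00 on the MEF arrays and did not pass the test. The mean signal of the list was 9.72 and 9.72 in gonad, 9.32 and 9.28 in MEF and 10.35 and 10.38 in immature Sertoli cultures. What blood, vessel and macrophage RNA contributed to the other differences was not tested.

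The Rhox cluster of reproductive homeobox genes on the X chromosome was uniformly high. All 7 tested members, of 9 on the array, were higher in the gonad, by 0.74 to 6.497. Rhox5, a Sertoli gene, measured 16.46 and 16.58 on the gonad arrays and 10.52 and 10.72 on the MEF arrays (difference 5.90 ± 0.09 (SE), adjusted p = 4.2e-11). Rhox9, of fetal germ cells, measured 12.42 and 12.48 on the gonad arrays and 6.08 and 5.82 on the MEF arrays (difference 6.497 ± 0.17 (SE)), and Rhox8 15.15 and 14.97 on the gonad arrays and 13.68 and 13.78 on the MEF arrays (difference 1.33 ± 0.10 (SE)). Only Rhox5 and Rhox8 were above the array median in MEF, so for the other 5 the direction follows from the intensity rule. Rhox5 stood at 7.77 and 7.66 in TTF and 10.15 and 10.26 in immature Sertoli cultures, both below the gonad.

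Across the X chromosome 31.8% of 588 tested genes were higher in the gonad by 1 or more, against 17.9% of 14485 autosomal genes, while 13.9% and 14.8% were lower by as much. For differences of 4 or more the shares were 7.99% and 2.15%. Neighbouring X genes include families of copies, such as Rhox, and are not independent, and no test was made. Of the sex chromosome genes, the Y-linked Eif2s3y measured 13.40 and 13.30 on the gonad arrays and 11.12 and 11.07 on the MEF arrays (difference 2.26 ± 0.09 (SE)), and Xist, the RNA of the inactive X, 7.02 and 6.95 on the gonad arrays and 9.25 and 9.27 on the MEF arrays (difference -2.28 ± 0.32 (SE), adjusted p = 0.00013). MEF thus carried signal of both, and the gonad arrays were under the array median for Xist. In TTF, Eif2s3y was 6.11 and 5.84 and Xist 9.85 and 9.83. The testis determining gene Sry was too dim to test.

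Fibroblast genes made up the largest block on the MEF side. All 46 listed genes were tested, 38 of them lower in the gonad and 5 higher, with a median of -2.61. Thy1, the surface protein used to sort fibroblasts, measured 9.68 and 9.72 on the gonad arrays and 17.504 and 17.51 on the MEF arrays (difference -7.81 ± 0.16 (SE), adjusted p = 2.4e-10). Prrx1, a homeobox factor of limb and body wall mesenchyme, measured 9.12 and 9.04 on the gonad arrays and 14.52 and 14.62 on the MEF arrays (difference -5.49 ± 0.07 (SE), adjusted p = 2e-11). Lox, which cross-links collagen, measured 8.83 and 8.85 on the gonad arrays and 15.37 and 15.37 on the MEF arrays (difference -6.53 ± 0.06 (SE)), and S100a4 9.21 and 9.05 on the gonad arrays and 15.45 and 15.40 on the MEF arrays (difference -6.30 ± 0.06 (SE)). The groups were far apart in each, with the gonad nevertheless above the array median. Fap, a protease of activated stroma, differed by -3.38, periostin Postn by -5.17, tenascin Tnc by -5.06 and the hyaluronan receptor Cd44 by -5.17.

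Not all of the fibroblast list was lower in the gonad. Sparc measured 18.42 and 18.50 on the gonad arrays and 18.03 and 18.78 on the MEF arrays, Lum 12.72 and 12.72 on the gonad arrays and 12.64 and 12.77 on the MEF arrays and Mfap4 15.67 and 15.47 on the gonad arrays and 15.45 and 15.62 on the MEF arrays, and none of the 3 passed the test. The main fibrillar collagen chains Col1a2 (-0.38), Col3a1 (-0.76) and Col1a1 (-1.13) and vimentin Vim (-1.15) were lower. The 5 members higher in the gonad were Pdgfra (2.06), Nt5e (1.73), decorin Dcn (0.87), Eng (0.66) and Zeb2 (0.51). Against the immature Sertoli cultures 26 of the 46 were lower in the gonad and 13 higher, beside 33.4% and 41.4% of all genes tested. Fap did not pass the test there (0.05 ± 0.13 (SE), adjusted p = 0.75).

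**Figure D4:**
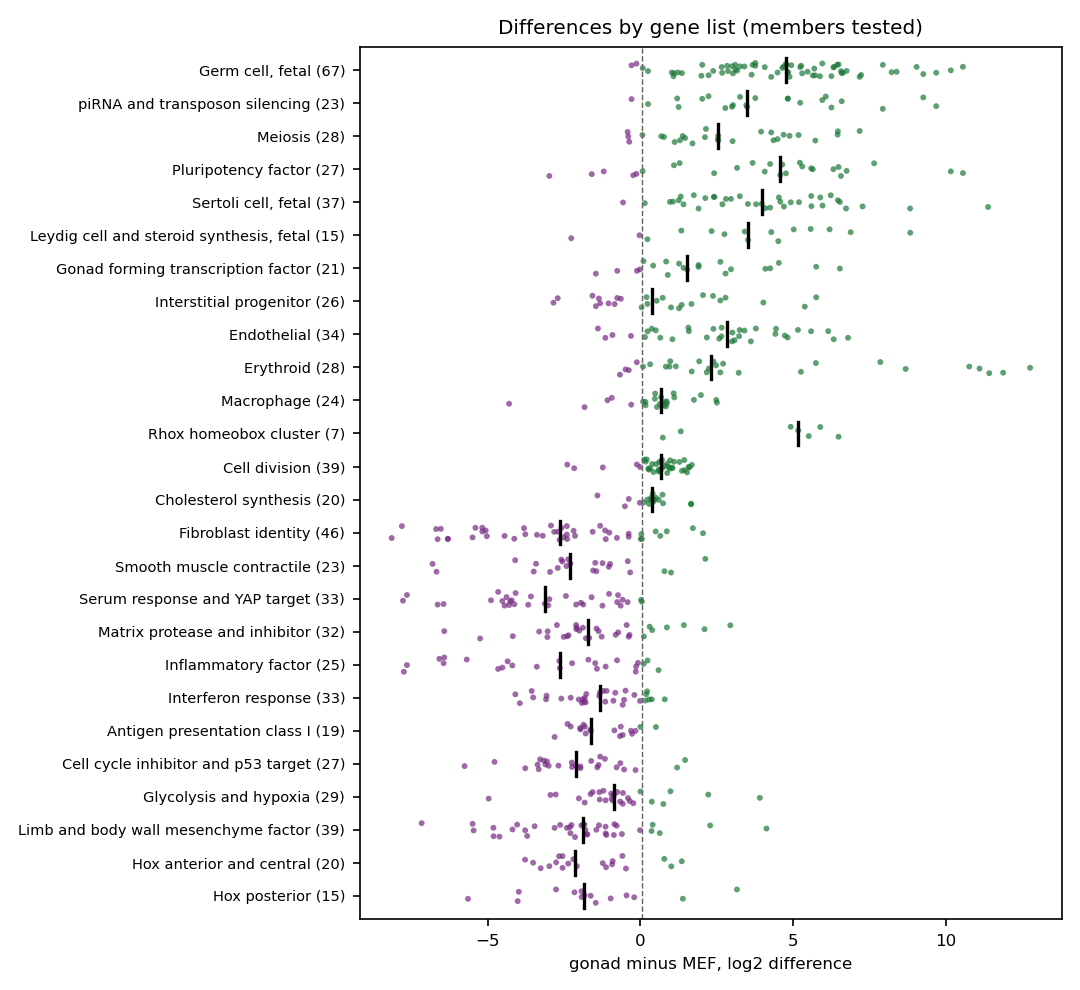
Gonad minus MEF log2 differences of the tested members of 26 gene lists, 1 point a gene, with the list median as a black bar; the dashed line is the median of all genes tested, 0.05. Germ cell, piRNA, Sertoli, Leydig and Rhox medians lie between 3.501 and 5.18, and the serum response, fibroblast and inflammatory medians between -3.12 and -2.61.

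Genes of the actin cytoskeleton and its transcriptional programme were lower in the gonad. The smooth muscle list had a median of -2.29, with 20 of its 23 members lower and 3 higher. Calponin Cnn1 measured 10.53 and 10.31 on the gonad arrays and 17.08 and 17.11 on the MEF arrays (difference -6.67 ± 0.08 (SE), adjusted p = 1.4e-11), and smooth muscle actin Acta2 15.97 and 15.82 on the gonad arrays and 18.75 and 18.44 on the MEF arrays (difference -2.70 ± 0.10 (SE)). The actin binding protein Tagln measured 14.34 and 14.39 on the gonad arrays and 18.26 and 18.66 on the MEF arrays (difference -4.10 ± 0.11 (SE)), with both gonad arrays still well above the 75th percentile. The desmin gene Des (-2.36) and smooth muscle myosin Myh11 (-1.03) were lower, while the coactivator Myocd was higher (1.01). In immature Sertoli cultures Acta2 was 18.41 and 18.39 and Tagln 18.41 and 18.43, near the MEF values.

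No gene of the serum response and YAP target list was higher in the gonad. 31 of 33 were lower, with a median of -3.12, and Ajuba (0.06) and Dusp6 (0.03) did not pass the test. The gonad mean was under the array median for 7 of the 33, so for these the direction follows from the intensity rule. Ankrd1 measured 6.92 and 7.10 on the gonad arrays and 14.83 and 14.72 on the MEF arrays (difference -7.77 ± 0.08 (SE), adjusted p = 8.5e-12). The matricellular gene Ccn1 measured 11.55 and 11.63 on the gonad arrays and 16.08 and 15.99 on the MEF arrays (difference -4.44 ± 0.07 (SE)), and Ccn2 13.44 and 13.42 on the gonad arrays and 17.66 and 17.45 on the MEF arrays (difference -4.12 ± 0.07 (SE)). The gonad was under the array median for Ankrd1 and well above it for both Ccn genes. Immediate early genes were lower as well, with Fos at 10.06 and 10.09 on the gonad arrays and 13.67 and 13.64 on the MEF arrays (difference -3.58 ± 0.06 (SE)) and Egr1 at 11.92 and 12.12 on the gonad arrays and 15.07 and 15.21 on the MEF arrays (difference -3.12 ± 0.09 (SE)). In the immature Sertoli cultures Ankrd1 was 14.83 and 14.83, Ccn1 16.56 and 16.61 and Fos 13.29 and 13.36. Of the 33 genes, 31 were lower in the gonad than there, beside 33.4% of all genes tested. Serum, age, culture and cell mixture all differ between gonad and these cultures and cannot be told apart. Between the fibroblast cultures, where 70.4% of all genes tested were called, 31.7% higher in TTF and 38.7% lower, the list had 17 higher and 9 lower in TTF.

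The promoters of Ccn1 and Ankrd1 are shown because both genes were lower in the gonad and their promoters hold the TEAD element through which YAP acts. GGAATG was searched on both strands of the same 250 bases and found in 6 of 22 promoters of the list (27.3%) and in 8 of 17 of smooth muscle genes (47.1%), against 13.2% of tested genes, 14.4% of all genes of the table and 21.4% of the 98 genes lower in the gonad by 4 or more that had a promoter. As above, this is a match of letters, chosen with the values known and not tested. Capitals mark the element, which is on the reverse strand in Ccn1.
Ccn1 (chr3:145650051-145650120, minus strand): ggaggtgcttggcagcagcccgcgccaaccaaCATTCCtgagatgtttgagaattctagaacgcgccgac
Ankrd1 (chr19:36119930-36119999, minus strand): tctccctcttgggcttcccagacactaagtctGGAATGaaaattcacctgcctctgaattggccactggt
The match begins 103 bases before the gene start in Ccn1 and 123 in Ankrd1, which has 2 in the 250 bases and 1 in the stretch printed.

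Enzymes that remodel matrix and mediators of inflammation were mostly lower in the gonad than in MEF. Of 32 matrix proteases and inhibitors 25 were lower and 6 higher, with a median of -1.72. The stromelysin Mmp3 measured 4.67 and 4.01 on the gonad arrays and 10.67 and 10.85 on the MEF arrays (difference -6.42 ± 0.18 (SE)), the collagenase Mmp13 differed by -5.24, and the inhibitor Timp1 by -2.35. Adamts16 (2.95) and Adamts9 (2.11) were higher in the gonad. The inflammatory list had 20 of 25 lower and 2 higher, with a median of -2.63, and 9 were under the array median in the gonad. The chemokine Ccl2 measured 8.31 and 8.16 on the gonad arrays and 14.90 and 14.73 on the MEF arrays (difference -6.58 ± 0.10 (SE), adjusted p = 4.1e-11), and its neighbour Ccl7 6.74 and 6.52 on the gonad arrays and 14.29 and 14.45 on the MEF arrays (difference -7.74 ± 0.09 (SE)). The cyclooxygenase Ptgs2 measured 6.06 and 6.19 on the gonad arrays and 13.79 and 13.74 on the MEF arrays (difference -7.64 ± 0.09 (SE), adjusted p = 1.4e-11), and the cytokine Il6 6.45 and 6.41 on the gonad arrays and 11.01 and 11.15 on the MEF arrays (difference -4.65 ± 0.11 (SE)). Groups did not overlap, and the gonad was under the array median for Ccl7, Ptgs2 and Il6. TTF were above MEF for Ccl2 (17.22 and 17.21), Ccl7 (16.71 and 16.71) and Il6 (12.94 and 13.001).

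Interferon response genes were lower in 25 of 33 cases and higher in 5, with a median of -1.32. Ifit1, which binds foreign RNA, measured 6.15 and 5.97 on the gonad arrays and 9.63 and 9.60 on the MEF arrays (difference -3.55 ± 0.07 (SE), adjusted p = 1.7e-10), and Ifit3 6.86 and 7.00 on the gonad arrays and 10.92 and 10.82 on the MEF arrays (difference -3.94 ± 0.08 (SE)). The ubiquitin-like Isg15 measured 12.81 and 12.94 on the gonad arrays and 14.70 and 14.80 on the MEF arrays (difference -1.87 ± 0.29 (SE), adjusted p = 0.00023). The gonad arrays were below both MEF arrays for the 3 genes and under the array median for the Ifit pair. Class I antigen presentation followed, 17 of 19 lower and 1 higher, with B2m at 14.80 and 14.55 on the gonad arrays and 16.54 and 16.38 on the MEF arrays (difference -1.78 ± 0.10 (SE)), H2-D1 at -2.38 and the peptide transporter Tap2 at -2.80. H2-Q4, of a family of near copies, was the 1 higher (0.51). The fibroblast types were unlike each other in this: 29 of the 33 interferon genes and 15 of the 19 class I genes were higher in TTF than in MEF, with medians of 1.59 and 1.02. Of all genes tested, 31.7% were higher in TTF than in MEF.

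Cell cycle genes divided by role. Replication and mitosis genes were slightly higher in the gonad, 29 of 39 with a median of 0.69. Mcm5, a subunit of the replicative helicase, measured 14.92 and 14.99 on the gonad arrays and 13.17 and 13.36 on the MEF arrays (difference 1.69 ± 0.09 (SE)), and Mki67, the proliferation antigen, 15.48 and 15.49 on the gonad arrays and 14.60 and 14.60 on the MEF arrays (difference 0.89 ± 0.05 (SE)). The 3 members lower in the gonad were G1 cyclins: Ccnd1 measured 12.83 and 12.65 on the gonad arrays and 15.20 and 15.07 on the MEF arrays (difference -2.39 ± 0.09 (SE)), Ccnd2 13.76 and 13.82 on the gonad arrays and 16.04 and 15.87 on the MEF arrays (difference -2.16 ± 0.08 (SE)) and Ccne1 differed by -1.22. Inhibitors and p53 targets were lower for 24 of 27 and higher for 2, with a median of -2.10. The inhibitor of CDK4 and CDK6 Cdkn2b measured 8.64 and 8.60 on the gonad arrays and 14.41 and 14.33 on the MEF arrays (difference -5.75 ± 0.05 (SE), adjusted p = 7.6e-12). The Ink4a and Arf locus Cdkn2a measured 11.53 and 11.60 on the gonad arrays and 14.73 and 14.95 on the MEF arrays (difference -3.28 ± 0.08 (SE)). The p53 target Cdkn1a measured 10.89 and 10.83 on the gonad arrays and 15.71 and 15.56 on the MEF arrays (difference -4.77 ± 0.07 (SE)), with its 12 features ranging from -4.79 to -0.86. All 3 were lower on each gonad array. Cdkn1c, the imprinted inhibitor, was higher (1.21), as was Sesn1 (1.47). In TTF, Cdkn2a stood at 17.18 and 17.14, and 35 of the 39 division genes were lower than in MEF, beside 38.7% of all genes tested.

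Glycolysis and hypoxia genes were lower for 23 of 29 and higher for 5, with a median of -0.87. Pgk1 measured 15.63 and 15.71 on the gonad arrays and 17.32 and 17.13 on the MEF arrays (difference -1.56 ± 0.09 (SE)), Ldha 16.90 and 16.96 on the gonad arrays and 17.83 and 17.76 on the MEF arrays (difference -0.87 ± 0.06 (SE)) and Vegfa 13.48 and 13.37 on the gonad arrays and 14.58 and 14.69 on the MEF arrays (difference -1.20 ± 0.07 (SE)). The peptide hormone Adm, a hypoxia target, had the largest fall at -4.96. Among lactate dehydrogenases the isoforms split, with Ldha lower, the heart form Ldhb higher (16.78 and 16.81 on the gonad arrays and 14.56 and 14.56 on the MEF arrays; difference 2.23 ± 0.06 (SE)), and the germ cell form Ldhc higher (3.92).

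Transcription factors that record position in limb and body wall were mostly lower in the gonad than in MEF. 32 of 39 were lower and 4 higher, with a median of -1.86, and 16 were under the array median in the gonad. Tbx15, of the trunk dermis and skeleton, measured 7.61 and 7.45 on the gonad arrays and 13.03 and 12.94 on the MEF arrays (difference -5.46 ± 0.06 (SE), adjusted p = 1.4e-11). Tbx5, of the forelimb, measured 6.45 and 5.75 on the gonad arrays and 10.76 and 10.66 on the MEF arrays (difference -4.61 ± 0.20 (SE)), and Pitx1, of the hindlimb, 8.70 and 8.61 on the gonad arrays and 12.94 and 12.74 on the MEF arrays (difference -4.18 ± 0.11 (SE)). Signal of the forelimb factor and of the hindlimb factor was thus present in MEF. Shox2 differed by -4.80, Foxd1 by -4.81 and Six2 by -3.77. The exceptions were Tbx2, higher by 4.14, Osr2 (2.29), Meis1 (0.64) and Hic1 (0.37).

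Hox genes, whose order along a cluster follows the body axis, separated by cluster. Of 20 anterior and central genes 16 were lower in the gonad and 3 higher, and of 15 posterior ones 11 and 2. The gonad mean was under the array median for 1 of the 20 and 6 of the 15. Every gene higher in the gonad belonged to the HoxD cluster. Hoxd9 measured 12.39 and 12.45 on the gonad arrays and 9.25 and 9.26 on the MEF arrays (difference 3.17 ± 0.08 (SE), adjusted p = 1.2e-09), Hoxd10 11.71 and 11.62 on the gonad arrays and 10.32 and 10.22 on the MEF arrays (difference 1.40 ± 0.07 (SE)), and Hoxd8 12.12 and 12.24 on the gonad arrays and 11.18 and 11.15 on the MEF arrays (difference 1.02 ± 0.07 (SE)). In each the gonad arrays were above both MEF arrays, and Hoxd3 (0.79) and Hoxd4 (1.36) were higher too. Further along the same cluster the sign turned: Hoxd11 was lower by a small margin (-0.97), Hoxd12 more (-3.98), and Hoxd13, of digits and genital tubercle, measured 5.77 and 5.75 on the gonad arrays and 11.37 and 11.42 on the MEF arrays (difference -5.64 ± 0.08 (SE), adjusted p = 2.9e-11). Hoxa10 measured 8.00 and 8.04 on the gonad arrays and 10.75 and 10.80 on the MEF arrays (difference -2.75 ± 0.09 (SE)) and Hoxa11 7.37 and 7.204 on the gonad arrays and 11.30 and 11.30 on the MEF arrays (difference -4.01 ± 0.22 (SE)). Hoxb genes were lower, Hoxb2 furthest (-3.77), except Hoxb13 (-0.20), which did not pass the test, like Hoxc4 (-0.47) and Hoxc13 (-0.45).

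**Figure D5:**
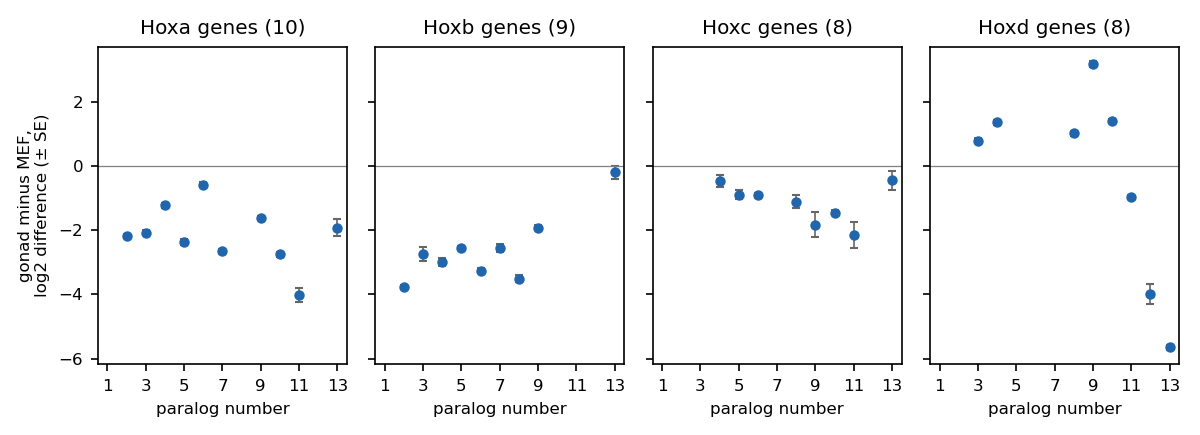
Gonad minus MEF log2 difference (± SE) of 35 Hox genes by cluster and paralog number. HoxA, HoxB and HoxC genes lie below 0 at every position tested, whereas HoxD genes lie above 0 from Hoxd3 to Hoxd10 and fall to -5.64 at Hoxd13.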

How the data were processed

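The authors deposited log2 signals of 1-colour Agilent arrays (Cy3 label) with the same distribution on each array (minimum 0.566, median 7.488, maximum 18.872). The submitters' processing notes name limma; how features were extracted, corrected for background or floored is not given in the sources used here. Without detection flags, a value near or under the median is dim by rank only, and the number of arrays limits the precision.

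Symbols came from the platform annotation, updated through RefSeq (GRCm38.p6). A gene was its brightest feature by mean over the 13 arrays, tested where above the array median on at least 2 of the 4 gonad and MEF arrays. Values were fitted as deposited with lmFit and eBayes of limma 3.58.1 (R 4.3.3), 13 arrays in 7 groups, with 6 residual and 2.786 prior degrees of freedom. Two-sided p-values were corrected by Benjamini-Hochberg over 15092 genes and called under 0.05. They and the standard errors reflect the spread between these arrays alone, possibly a technical one. Data were also simulated with independent noise around 1 mean per gene, and 50 genes were changed at each size. The fit recovered 70%, 98%, 96% and 98% of genes changed by 0.5, 1, 2 and 4 (log2), and called 7 of 14892 unchanged genes. Far more genes were called in the real comparison, so these values do not give its rate of false calls.

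The members, lists and motifs were chosen with earlier results of these data known. Named were the 15 largest rises and 15 largest falls among calls with arrays apart and the brighter group above the 75th percentile (clone and predicted names left out), 5 key genes of each of 40 lists, and of each list the 4 called members with the largest difference in each direction. Further list members are named to account for a list.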

Additional observations from a re-analysis of the deposited data

How the results depend on the processing

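Quantile normalization again, a common 75th percentile and variance trend with robust fitting left the direction and call of all 363 named genes as they were; array weights, the fit on the 4 arrays alone, no filter and a filter over all 13 arrays ended the call of at most 5. Leaving out 1 array gave 11529 to 11786 called genes for gonad against MEF, 10154 to 10773 for gonad against immature Sertoli and 9761 to 9884 for TTF against MEF, and ended at most 8 named calls. A filter at the 75th percentile left 3206 genes called by 1 or more. Of the 363 named genes it kept 278 in the test, and the call of these was unchanged. Testing against a minimum log2 difference of 1 left 3794 called, 2138 higher and 1656 lower, and ended 84 named calls, by construction; the stricter filter and this test moved 26 and 44 of the 80 list counts by over 1.5 times. Averaging a gene's features turned the direction of Kdr (3.14), Nanog (2.05), Ptges (-0.60), Smo (-0.20), Eif2s3x (-0.10) and Ddx58 (-0.0133), whose features disagree. Tnp1, not called in the main fit, changed direction with the MEF array left out, from -0.29 without MEF replicate 2 to 0.31 without MEF replicate 1. The cause was not tested. The running numbers of the sample titles fall into 2 sets with 1 array of nearly every group in each; whether they mark a batch is not stated, and the set differences of the groups correlated over genes by 0.032 to 0.251, over 0.1 in 5 of 15 pairs of groups and 0.051 for gonad and MEF. With the set as a replicate block, added after seeing the data, 12751, 11745 and 11144 genes were called in the 3 comparisons, and of the named genes the call of 1 changed, Adgre1 (0.17, adjusted p = 0.0454), which passed. Dim values are a limit: against a group under the array median a difference has no firm size.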

Other observations

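Several gene groups outside the cell types above were measured as well. Their counts are to be read beside the shares of all genes tested, 43.0% higher in the gonad and 38.9% lower. Collagen chains split: of 38 tested, 16 were higher and 20 lower in the gonad. Collagen IX and XXVI chains were higher, Col9a2 at 14.47 and 14.41 on the gonad arrays and 8.95 and 9.03 on the MEF arrays (difference 5.45 ± 0.07 (SE)), Col26a1 differing by 5.38 and Col9a3 by 3.98. Col12a1 (-6.39), a chain that bridges fibrils, and Col5a3 (-5.22) and Col8a1 (-5.20) were lower, and so was Col2a1, the main chain of cartilage, at 10.70 and 10.84 on the gonad arrays and 15.04 and 15.17 on the MEF arrays (difference -4.34 ± 0.14 (SE)). The basement membrane chain Col4a1 differed by little (-0.21). Of cartilage and bone genes 13 of 23 were higher, with Alpl, an alkaline phosphatase that also marks germ cells, at 11.93 and 12.02 on the gonad arrays and 6.76 and 6.92 on the MEF arrays (difference 5.14 ± 0.32 (SE)), and 9 lower, with Runx2, the bone factor, at -2.75.

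Wnt pathway genes were higher for 19 of 37 and lower for 14, beside 43.0% and 38.9% of all genes tested. Wnt6 measured 15.58 and 15.49 on the gonad arrays and 7.93 and 7.96 on the MEF arrays (difference 7.58 ± 0.10 (SE)), and Wnt3 differed by 5.17. The R-spondins, which amplify Wnt signals, split: Rspo1 was higher (2.22), while Rspo2 measured 7.37 and 7.37 on the gonad arrays and 13.07 and 12.97 on the MEF arrays (difference -5.65 ± 0.49 (SE)) and Rspo3 differed by -4.15. Genes named for ovarian fate were not uniformly low in the male gonad, with 11 of 19 higher and 5 lower. Foxl2, a granulosa factor, was bright in both groups at 14.59 and 14.59 on the gonad arrays and 14.98 and 14.85 on the MEF arrays and did not pass the test, Wnt4 was higher (1.11), and Fst and Runx1 (-4.05) were lower.

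Epigenetic regulators were higher for 17 of 26 and lower for 9. The demethylase Tet1 measured 12.37 and 12.31 on the gonad arrays and 9.19 and 9.37 on the MEF arrays (difference 3.06 ± 0.08 (SE)), and the de novo methyltransferases Dnmt3b (2.52) and Dnmt3a (1.87) and the helicase Hells (2.20) were higher, while Gadd45a (-3.36), the deaminase Apobec1 (-1.17), the methyl-CpG binding protein Mbd2 (-1.16) and Tet3 (-0.99) were lower. Imprinted genes split, 15 higher and 11 lower of 32, beside 43.0% and 38.9% of all genes tested. Igf2, the paternally expressed growth factor, measured 11.36 and 11.14 on the gonad arrays and 14.18 and 13.67 on the MEF arrays (difference -2.68 ± 0.16 (SE)), and its neighbour H19 differed by -0.96. Mest (2.07), Asb4 (3.72) and Ascl2 (4.25) were higher. Their sources of RNA differ in cell type, so allelic state cannot be read from these values.

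Epithelial and duct genes were mixed, 13 of 25 higher and 7 lower. Epcam measured 11.51 and 11.61 on the gonad arrays and 6.42 and 6.52 on the MEF arrays (difference 5.09 ± 0.24 (SE)) and the cadherin Cdh1, which germ cells also carry, 11.83 and 11.70 on the gonad arrays and 6.10 and 6.47 on the MEF arrays (difference 5.48 ± 0.34 (SE)). The duct markers Cdh16 (1.90) and Pax8 (1.34) were higher but not bright, and Pax2 was too dim to test. Mesothelial Msln (-3.56) and Spp1 (-4.78) were lower. Of junction genes 16 of 24 were higher and 4 lower, the higher ones led by Cldn11, the claudin of Sertoli junctions, at 11.96 and 11.99 on the gonad arrays and 7.24 and 7.30 on the MEF arrays (difference 4.71 ± 0.06 (SE)), apart from endothelial Cldn5. Gja1, the main gap junction protein, measured 11.04 and 10.995 on the gonad arrays and 11.35 and 11.24 on the MEF arrays (difference -0.28 ± 0.08 (SE)).

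Of muscle and neural genes 6 of 18 tested were higher and 9 lower, and 8 were too dim to test, Myod1, Pax7 and Dcx among them. Sox10, a glial factor also known from the gonad, measured 10.88 and 11.005 on the gonad arrays and 8.28 and 8.32 on the MEF arrays (difference 2.64 ± 0.08 (SE)), and the troponin Tnnt1 14.93 and 14.96 on the gonad arrays and 10.20 and 10.42 on the MEF arrays (difference 4.64 ± 0.08 (SE)), while Acta1 (-4.46) and Stmn2 (-3.18) were lower. Of spermatid genes 16 were too dim to test and 9 were tested, 5 of them higher and 2 lower. Ldhc (3.92), Meig1 (3.24) and Tekt1 (2.94) were higher, and the protamine Prm1 (-0.64) and the protease Acr (-0.50) lower, with Tnp1 at 7.51 and 7.29 on the gonad arrays and 7.69 and 7.09 on the MEF arrays and Prm1 at 7.42 and 7.26 on the gonad arrays and 8.22 and 7.75 on the MEF arrays.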
